A study of Mus musculus with 6 samples.

Results

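Chemokine ligands are small secreted proteins, with a few membrane-bound members, that direct cell migration. The genes described here are those whose symbol starts with Ccl or Cxcl followed by digits, together with Cx3cl1, Xcl1 and Pf4, and that had at least 20 unique molecular identifiers (UMIs) over all deposited barcodes. Of 31055 genes in the matrix, 40 symbols matched and 28 passed the UMI rule. Ccl17, with 22 UMIs, lay just inside it. Ccl1 with 19 UMIs, all in 1 barcode, and Ccl28 with 16 lay just outside. Cxcl17 (4 UMIs), Cxcl3 (2) and Ccl27b (1) were lower still, and the other 7 symbols had 0 UMIs. A UMI counts each captured transcript once, so levels are given as UMIs per 1000000 UMIs of the same cells (CPM) and can be set beside each other without scaling for length.

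Hearts were taken from C57BL/6 mice 3 to 6 months old. Non-myocytes released by collagenase II on a Langendorff apparatus were sorted for EGFP and profiled on the 10x Chromium platform. The 3 control libraries carried Wt1CreERT2:Rosa26mTmG, a Cre recombinase inducible by tamoxifen and driven from the Wt1 locus, with a reporter that changes from Tomato to EGFP where Cre has acted. The 3 Dsp_het libraries carried Wt1CreERT2:Rosa26mTmG:DspW/F, that is, the same alleles with 1 conditional copy of the desmosomal gene Dsp. The Cre and the reporter were therefore shared by both groups. Wt1 is transcribed in the epicardium and also in some coronary endothelial cells, which limits the line as a marker of epicardial descent. The labels do not say whether each library came from 1 animal, so p-values measure the spread between libraries.

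Chemokines act through G protein-coupled receptors on the responding cell. Atypical receptors such as Ackr3 bind ligands and remove them without the usual signal. In the heart, Cxcl12 is known for guiding coronary vessel growth through Cxcr4. Macrophage and monocyte ligands of the Ccl family recruit further leukocytes, and the ligands Cxcl1, Cxcl2 and Cxcl5 attract neutrophils. Cxcl9 and Cxcl10 are induced by interferons and attract T cells, whereas Ccl19 and Ccl21a guide cells that carry Ccr7.

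The matrix held 18283 barcodes with 7573157 to 17083660 UMIs per library. Libraries shared cell barcodes: 1689 of 13183 distinct barcodes occurred in more than 1 library and 530 in all 6. Each such barcode was kept only in the library that held most of its UMIs, which left out 5092 copies (27.9% of barcodes, 17.3% to 48.9% per library). After filters, 12608 cells remained, with 2441, 1579 and 2823 in control 1 to 3 and 2942, 1769 and 1054 in Dsp_het 1 to 3. Dsp itself had 13, 15 and 32 UMIs in the control and 16, 11 and 31 in the Dsp_het libraries, so the groups overlapped. Whether the counted end of the transcript lies inside the deleted part is not given in the sources used here, so these counts do not check the labels. The reporter's EGFP sequence, listed as GFP, was present in every class, at a median of 3667 CPM in endothelial-like, 906 in epicardial-like, 801 in fibroblast-like, 768 in pericyte-like and 150 in macrophage-like cells. Xist, the RNA that coats the inactive X chromosome, was at 504 CPM in control 3 and 644 in Dsp_het 2 and at 0.146 or less in the other 4 libraries.

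Clusters made without the ligand genes were named from marker lists. Endothelial-like cells numbered 10223, fibroblast-like 1188, epicardial-like 589, macrophage-like 218 and pericyte-like 209. Another 92 cardiomyocyte-like cells, 60 cells of a cluster led by the division genes Top2a and Mki67, of which 20 had T or NK cell markers, and 29 unnamed cells were not compared. The mix differed between libraries. Fibroblast-like cells made up 4.79%, 5.95% and 5.88% of control 1 to 3 and 20.6%, 6.50% and 8.44% of Dsp_het 1 to 3. Macrophage-like cells numbered 51, 36 and 69 in the control and 2, 20 and 40 in the Dsp_het libraries. A class entered a library's values only with at least 20 cells, so Dsp_het 1 has no macrophage-like value and only Dsp_het 3 among the Dsp_het libraries has a pericyte-like one.

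The ligands were spread unevenly over the classes. Cxcl12 was high in endothelial-like and pericyte-like cells, whose libraries overlapped, Cxcl1, Cxcl14, Cxcl5 and Ccl19 in fibroblast-like cells, and Pf4 and most Ccl genes in macrophage-like cells. Of the 27 ligands with at least 20 UMIs in kept cells, 15 were higher in every library of 1 class than in any library of the other 4 classes, against 18% of the 14698 genes counted likewise. In macrophage-like cells 11 of the 27 ligands did so, against 5.29% of the 14698 genes. These were Pf4, Cxcl2, Ccl24, Cxcl16, Ccl7, Ccl12, Ccl8, Ccl9, Ccl6, Ccl3 and Ccl4. In fibroblast-like cells 4 of the 27 did so, against 3.64% of the 14698 genes: Ccl19, Cxcl5, Cxcl1 and Cxcl14. No ligand stood apart in this way in endothelial-like, epicardial-like or pericyte-like cells, where 2.35%, 4.94% and 1.8% of genes did. The other 12 ligands overlapped between classes. These are descriptions of the same cells that were clustered, with no test.

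**Figure D1:**
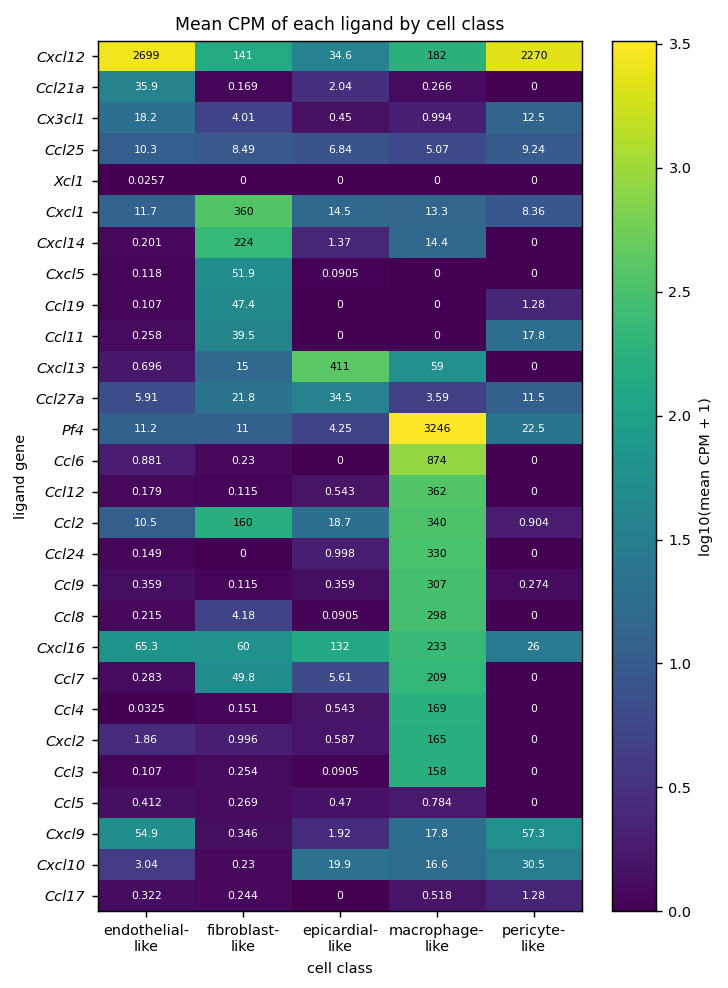
Heat map of the mean level of each ligand in 5 classes, in CPM averaged over the libraries with at least 20 cells of the class, with the value printed in each field. Cxcl12 reached 2699 in endothelial-like and 2270 in pericyte-like cells, and Pf4 reached 3246 in macrophage-like cells.

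Cxcl12 was the most abundant ligand, with 120089 of its UMIs in kept cells and 94.1% of those in endothelial-like cells. Its endothelial-like level was 2703, 3178 and 2611 CPM in control 1 to 3 and 2782, 2530 and 2391 in Dsp_het 1 to 3, a mean of 2699 ± 271 (SD, n = 6). The groups overlapped, since Dsp_het 1 lay above 2 of the 3 control libraries. At least 1 Cxcl12 UMI was seen in 91.4% of endothelial-like cells and in 11.9% of epicardial-like cells, although the epicardial-like cells were deeper, with a median of 9503 UMIs. With every cell thinned to 1000 UMIs the shares were 76.2% and 2.25%. Pericyte-like cells had 2270 ± 492 CPM (SD, n = 4). These cells also carried 20031 to 22953 CPM of the summed endothelial markers, against 32754 to 40000 in endothelial-like cells, and the part of these transcripts in their Cxcl12 level was not tested. Fibroblast-like cells had 141 ± 47.4 CPM (SD, n = 6) and their summed endothelial markers reached at most 1365 CPM.

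Cxcl12 was uneven among the 10 endothelial-like clusters. It was 5333 ± 353 CPM (SD, n = 6) in the cluster led by Rbp7 and Hey1 and 5247 ± 957 in the cluster led by Gja4 and Sema3g, which encode a gap junction protein of arterial endothelium and a semaphorin. In 6 of 6 libraries both clusters lay above each of the other 8. The cluster led by Serpina1b and Vwf, the latter encoding von Willebrand factor, had 465 ± 65.0 CPM, and the cluster led by Cytl1 and Plvap had 56.6 ± 54.7. The first pair did not differ beyond their spread, and neither overlapped the last pair. Cxcr4, the signalling receptor of Cxcl12, had the same pair at the top, with 143 ± 36.6 CPM in the Gja4-led and 105 ± 25.6 in the Rbp7-led cluster. Both were above the other 8 clusters in 5 of 6 libraries, the exception being Dsp_het 2, where the Apln-led cluster lay above the Rbp7-led one, at 58.3 CPM. In the Vwf-led cluster Cxcr4 was at 1.85 CPM. Ackr3, the atypical receptor that takes up Cxcl12, ran the other way: 396 ± 46.2 CPM in the Vwf-led and 275 ± 105 in the Plvap-led cluster, both above the other 8 in 5 of 6 libraries, control 2 being the exception. The ligand and its signalling receptor were thus highest in the same endothelial clusters, and the scavenging receptor was highest where both were low. The clusters were made from the same cells, so these orders are descriptions.

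**Figure D2:**
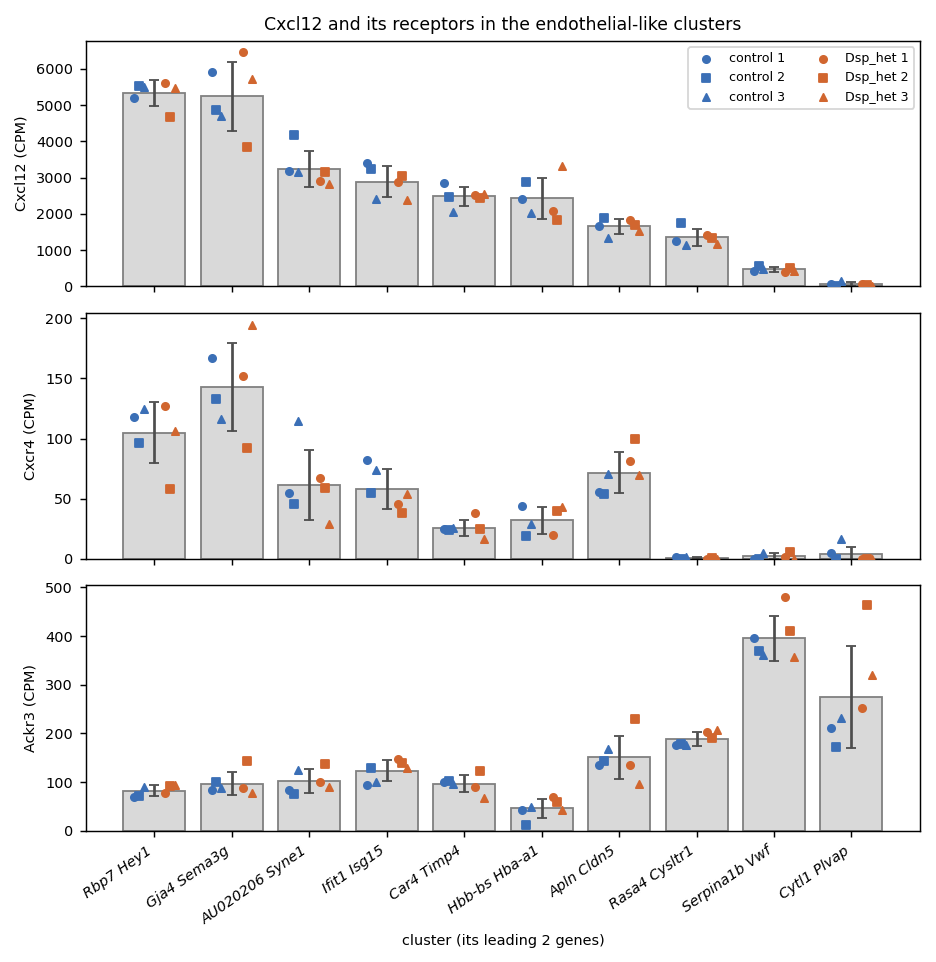
Levels of Cxcl12, Cxcr4 and Ackr3 in the 10 endothelial-like clusters, each named by its leading genes, in CPM. Bars are means, error bars SDs and points the 6 libraries. Cxcl12 and Cxcr4 are highest in the Rbp7-led and Gja4-led clusters and Ackr3 in the Vwf-led cluster.

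Cxcl16 and Cx3cl1 are the ligands made as membrane proteins, which present their chemokine domain on the cell surface and can be shed by Adam10 and Adam17. Cxcl16 was the most evenly spread of the abundant ligands. It was 233 ± 30.3 CPM (SD, n = 5) in macrophage-like, 132 ± 20 (n = 6) in epicardial-like, 65.3 ± 13.5 in endothelial-like and 60 ± 13.4 in fibroblast-like cells. The last pair did not differ beyond their spread. Epicardial-like values were 169, 107 and 126 CPM in control 1 to 3 and 130, 132 and 131 in Dsp_het 1 to 3, so the groups overlapped. Among endothelial-like clusters, the Plvap-led (175 ± 19.4 CPM) and Vwf-led (152 ± 12.9) clusters were above the other 8 in 6 of 6 libraries, the reverse of the Cxcl12 order. Part of Cxcl16 overlaps Zmynd15 on the opposite strand, so reads there could belong to either gene unless the counting used strand.

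Cx3cl1, whose receptor Cx3cr1 marks resident macrophages, was low and mostly endothelial, at 19.0, 19.9 and 14.8 CPM in control 1 to 3 and 18.5, 16.1 and 20.7 in Dsp_het 1 to 3. Its highest cluster mean was 41.6 ± 11.5 CPM (SD, n = 6) in the Gja4-led cluster, above all others in 4 of 6 libraries. Cx3cr1 was at 350 ± 34.5 CPM (SD, n = 5) in macrophage-like cells, with 84.9% of its UMIs there. Ligand and receptor were therefore in different classes.

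Cxcl9 and Cxcl10 lie side by side on chromosome 5, within 27.5 kb. Cxcl9 was endothelial for 89.6% of its UMIs. Its endothelial-like level was 99.2, 65.7 and 46.2 CPM in control 1 to 3 and 34.2, 25.2 and 58.9 in Dsp_het 1 to 3. The groups overlapped, because Dsp_het 3 lay above control 3. The cluster led by Ifit1 and Isg15, genes that interferon induces, had 193 ± 154 CPM (SD, n = 6) and the cluster led by Apln, which encodes the peptide apelin, had 104 ± 40.1. Both were above the other 8 endothelial-like clusters in 5 of 6 libraries, all but Dsp_het 1. The Ifit1-led cluster made up 6.35%, 9.75% and 6.52% of the control libraries and 5.57%, 5.71% and 4.74% of the Dsp_het libraries, all lower. Cxcl10 was much scarcer, with 331 UMIs in 113 kept cells, spread over endothelial-like (36.3%), epicardial-like (31.1%), pericyte-like (17.8%) and macrophage-like cells (11.5%). Where Cxcl10 was seen in an endothelial-like cell, Cxcl9 usually was too: 35 of 66 such cells (53.0%) had a Cxcl9 UMI, against 998 of all 10223 endothelial-like cells (9.76%). Cxcl10 lies wholly inside a stretch that Art3 covers on the opposite strand, and its level is uncertain in that respect.

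The neutrophil-attracting ligands Cxcl1, Cxcl2 and Cxcl5 share a 147-kb stretch of chromosome 5 with Pf4, but their cell classes differed. Cxcl1 was a fibroblast ligand, with 87.8% of its UMIs in fibroblast-like cells. Its level there was 468, 130 and 243 CPM in control 1 to 3 and 752, 289 and 280 in Dsp_het 1 to 3, with control 1 above 2 Dsp_het libraries. It was detected in 42.8% of fibroblast-like cells (21.4% after thinning). Cxcl5 was also fibroblast-like, at 51.9 ± 38.3 CPM (SD, n = 6), against at most 0.118 as the mean of any other class. Cxcl2, the close relative of Cxcl1, was instead highest in macrophage-like cells, at 76.0, 158 and 116 CPM in control 1 to 3 and 170 and 304 in Dsp_het 2 and 3, both above every control library. In endothelial-like cells, where both were rare, 17 of 34 cells with a Cxcl2 UMI also had Cxcl1 (50%), against 310 of all 10223 (3.03%).

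Joint detection was not limited to these neighbours. Here, above and below it was counted at full depth with the libraries pooled. The part of depth and of doublets in it was not tested. Of the 66 endothelial-like cells with Cxcl10, 17 had a Pf4 UMI (25.8%) and 9 a Ccl2 UMI (13.6%), and of the 34 with Cxcl2, 7 had Ccl2 (20.6%), while Pf4 was in 342 and Ccl2 in 74 of all 10223.

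The promoters of Cxcl1 and Cxcl2 and of Cxcl9 and Cxcl10 are printed because each pair lies in 1 locus, while its members were found in different classes or at different levels. The sequences are RefSeq's, on build GRCm38.p6, the 220 bases upstream of the annotated start, 5′ to 3′ on the gene's strand. Capitals mark matches to the kappa-B consensus, the core of the interferon-stimulated response element (GAAA, any 2 bases, GAAA) and the AP-1 site TGANTCA, searched on both strands.
Cxcl1: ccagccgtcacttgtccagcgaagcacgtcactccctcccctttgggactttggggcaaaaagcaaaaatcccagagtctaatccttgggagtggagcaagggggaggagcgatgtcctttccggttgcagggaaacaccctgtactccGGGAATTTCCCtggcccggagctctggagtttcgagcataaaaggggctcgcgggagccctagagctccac
Cxcl2: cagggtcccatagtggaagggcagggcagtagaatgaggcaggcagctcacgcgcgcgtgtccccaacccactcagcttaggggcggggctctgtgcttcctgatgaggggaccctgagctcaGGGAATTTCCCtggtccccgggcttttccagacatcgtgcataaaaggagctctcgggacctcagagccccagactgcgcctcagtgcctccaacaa
Cxcl9: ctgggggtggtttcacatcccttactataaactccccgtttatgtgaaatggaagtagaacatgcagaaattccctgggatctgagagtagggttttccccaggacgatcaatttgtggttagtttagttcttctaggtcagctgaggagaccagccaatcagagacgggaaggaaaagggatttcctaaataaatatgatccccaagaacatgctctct
Cxcl10: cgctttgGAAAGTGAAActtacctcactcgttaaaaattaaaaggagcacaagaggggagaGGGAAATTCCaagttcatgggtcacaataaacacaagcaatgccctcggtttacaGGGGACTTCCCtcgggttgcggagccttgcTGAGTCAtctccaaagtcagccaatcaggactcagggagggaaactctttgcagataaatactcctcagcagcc
The Cxcl1 window is chr5:90891025-90891244 and the Cxcl2 window chr5:90903679-90903898, both on the plus strand. The Cxcl9 window is chr5:92328080-92328299 and the Cxcl10 window chr5:92348890-92349109, both on the minus strand. Cxcl1 and Cxcl2 held the same kappa-B letters, GGGAATTTCC, at -71 to -62 and -97 to -88 from the start, each with an overlapping match 1 base downstream on the other strand. Cxcl10 held a response element match at -213 to -204, kappa-B matches at -159 to -150 and, overlapping each other, at -104 to -95 and -103 to -94, and an AP-1 match at -74 to -68. The Cxcl9 window held no match to these 3 motifs. The RefSeq table held 23 promoters of 20 ligands, some having more than 1. Counted over 250 bases upstream, 4 of the 23 had a kappa-B match (Cxcl1, Cxcl2, Cxcl10 and Ccl9), against 7.25% of 32851 promoters. The response element core was in 3 (Ccl19, Cxcl10 and Cxcl14), against 2.98%, and the AP-1 site in 3 (Ccl27a, Cxcl10 and Ccl9), against 6.75%. TATAAA, the letters of a TATA box, was in 7, against 12.4%, and is not capitalised. A match describes the letters and does not show that a factor binds there.

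Cxcl14, which acts on monocytes and dendritic cells and whose receptor is unsettled, was found in few fibroblast-like cells. The class held 97.8% of its UMIs, yet 11.9% of its cells had 1 or more (6.79% after thinning). The fibroblast-like level was 275, 201 and 122 CPM in control 1 to 3 and 205, 282 and 256 in Dsp_het 1 to 3, with control 1 and Dsp_het 2 nearly equal at the top. Ccl19, a ligand of Ccr7, was at 47.4 ± 23.5 CPM (SD, n = 6) in fibroblast-like cells and held 99.0% of its UMIs there. Ccr7 itself had 11 UMIs in all kept cells. Ccl11 (eotaxin), a ligand of Ccr3, was concentrated in 1 small fibroblast-like cluster led by Igfbp3 and Nbl1, at 827 CPM and in 77.6% of its cells, against 3.03% of the larger fibroblast-like cluster. That cluster held 67 cells, 57 of them from Dsp_het 1, so its levels are those of 1 library.

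Macrophage-like cells held the widest set of ligands. Pf4, also known as Cxcl4 and best known from platelets, was at 3337, 2935 and 3916 CPM in control 1 to 3 and at 2908 and 3135 in Dsp_het 2 and 3, so Dsp_het 3 lay above control 2. It was found in 89.4% of macrophage-like cells (81.4% after thinning) and in 3.35% of endothelial-like cells (0.897% after thinning). Of the 6 platelet markers, 5 were at 0 in macrophage-like cells, and their sum reached at most 5.07 CPM in any library. Ccl6 followed at 874 ± 186 CPM (SD, n = 5) and in 82.1% of the cells. Its values were 771, 694 and 977 CPM in the control and 777 and 1150 in the Dsp_het libraries.

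The ligands of Ccr2, the receptor of inflammatory monocytes, came next: Ccl12 at 362 ± 168 CPM, Ccl2 at 340 ± 106 and Ccl7 at 209 ± 81.6 (SD, n = 5 each). Ccr2 was itself at 124 ± 64.1 CPM in the same class. The macrophage inflammatory proteins Ccl9, Ccl4 and Ccl3 were at 307 ± 115, 169 ± 75.8 and 158 ± 123 CPM, and Ccr1, a receptor of Ccl9 and Ccl3, was at 115 ± 29.4. Ccl24, an eotaxin, was at 330 ± 81.7 CPM, and its receptor Ccr3 had 2 UMIs in all kept cells. Ccl8 was at 329, 280 and 478 CPM in control 1 to 3 and at 28.4 and 374 in Dsp_het 2 and 3, Dsp_het 2 standing far below the rest. These spreads are over 20 to 69 cells a library, and within them Ccl12, Ccl2, Ccl24, Ccl9 and Ccl8 did not differ from each other. In this class, 35 of 54 cells with Ccl3 also had Ccl4 (64.8%), and 31 of 56 with Ccl7 also had Ccl8 (55.4%), while Ccl4 was in 61 and Ccl8 in 59 of all 218 cells. Both pairs lie on chromosome 11, where 11 of the 28 ligands are, but ligands of different chromosomes were also found together: 22 of 36 cells with Cxcl2 also had Ccl3 (61.1%), which was in 54 of the 218.

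Some ligands rested on very few cells. For Ccl2, 1 fibroblast-like cell of Dsp_het 3 held 753 of 2714 UMIs (27.7%). The fibroblast-like level was accordingly 2.01, 101 and 88.5 CPM in control 1 to 3 and 44.8, 29.4 and 692 in Dsp_het 1 to 3. For Cxcl13, which attracts B cells through Cxcr5, 10 cells held 89.3% of 2023 UMIs. Its epicardial-like values were 1711, 8.94 and 313 CPM in the control and 403, 24.7 and 8.40 in the Dsp_het libraries, so libraries of both groups were high or low. The cell with the most, 556 UMIs in control 1, had 299 fibroblast-marker and 6 epicardial-marker UMIs, although it clustered with the epicardial-like cells. Among fibroblast-like cells, 20 of the 22 with Cxcl13 also had Ccl11 (90.9%), which was in 86 of all 1188. Of the 22, 21 lay in the Igfbp3-led cluster, where 77.6% of cells had Ccl11 and 57 of 67 cells came from Dsp_het 1.

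Ccl21a, the lymphatic ligand of Ccr7, was almost wholly in 8 cells with 30 to 416 UMIs each, which held 98.6% of 1752 UMIs. All 8 had Lyve1 and Mmrn1 and 6 had Prox1, genes of lymphatic endothelium. They numbered 3, 1 and 2 in control 1 to 3 and 1, 1 and 0 in Dsp_het 1 to 3. Ccl5, a T cell product, and Xcl1, a product of T and NK cells, came mostly from the 20 cells with at least 5 UMIs of T or NK cell markers, all in the Top2a-led cluster. Xcl1 was seen in 6 of them. The 20 cells held 752 of 784 Ccl5 UMIs (95.9%), 157 of 158 Xcl1 UMIs (99.4%), 20.5% of the Ccl4 and 10.8% of the Ccl3 UMIs. They numbered 4, 2 and 6 in the control and 1, 5 and 2 in the Dsp_het libraries. In control 1 alone, 1 cell held 129 Xcl1, 97 Ccl5, 83 Ccl4 and 38 Ccl3 UMIs. For these genes a library's level counts a handful of cells, whatever their genotype.

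**Figure D3:**
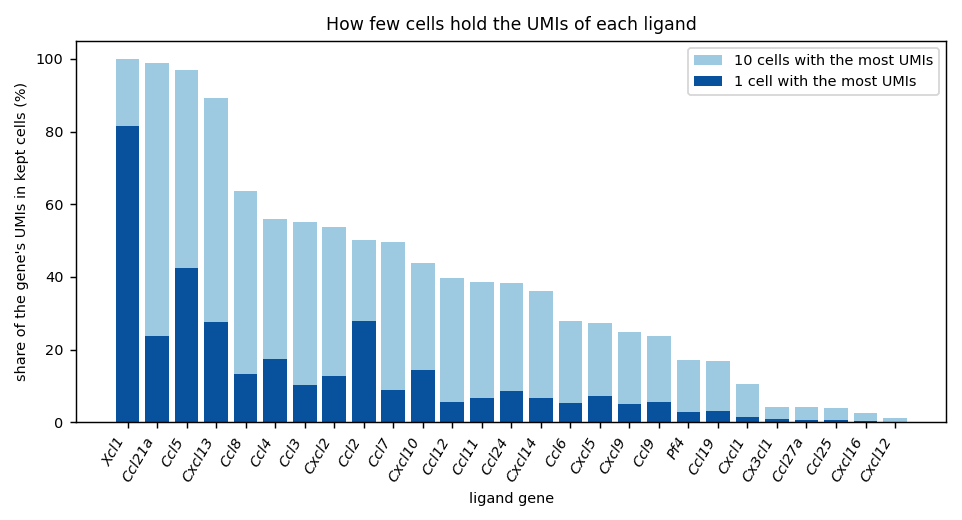
Share of each ligand's UMIs, in percent, held by the cell and by the 10 cells with the most, over all kept cells. Ccl17 is left out. Xcl1 (81.6% in 1 cell) and Ccl21a (98.9% in 10 cells) stand at one end and Cxcl12 (0.189% and 1.26%) at the other.

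The remaining ligands were low and broad. Ccl27a, the skin chemokine that binds Ccr10, was at 34.5 ± 6.26 CPM (SD, n = 6) in epicardial-like and 21.8 ± 5.02 in fibroblast-like cells. Ccl25, known from thymus and gut, was at 10.3 ± 1.25 CPM in endothelial-like cells and did not differ beyond its spread in the fibroblast-like ones (8.49 ± 3.06). Ccl17 had 19 UMIs in 19 kept cells, 68.4% of them endothelial-like. Ccl27a, Ccl19 and Ccl21a have near-identical copies in the mouse genome, and Ccl27a and Ccl25 overlap Il11ra1 and Elavl1 on the opposite strand, so their counts are uncertain.

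Seen per cell, 93.2% of kept cells (95% Clopper-Pearson interval 92.8% to 93.6%, counting error only) had at least 1 ligand UMI, and 45.1% had one other than Cxcl12. At 1000 UMIs per cell, with 607 shallower cells left out, the shares were 74.1% and 18.4%. By class, 90.2% of macrophage-like, 80.2% of endothelial-like, 62.9% of pericyte-like, 50% of fibroblast-like and 22.5% of epicardial-like cells had a ligand UMI at that depth. A receptor UMI was present in 50.3% of cells (20.4% thinned). Epicardial-like cells had the smallest share with a ligand of the 5 classes, at a larger median depth than all but the macrophage-like cells.

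Of 24 receptors listed, Ackr3 had the most UMIs (9804). Among the others were Cxcr4 (2460), Ccrl2 (1938), Cx3cr1 (999), Ccr2 (434), Ackr4 (411) and Ccr1 (293). Ackr3 was highest in fibroblast-like cells (306 ± 56.1 CPM, SD, n = 6), where endothelial-like cells had 147 ± 22.7. Ackr4, which removes Ccl19, Ccl21 and Ccl25, was at 35.2 ± 14.5 CPM in fibroblast-like cells, the class that also carried Ccl19. Ccrl2, an atypical receptor that presents chemerin, was at 35.9 ± 3.72 CPM in endothelial-like cells. The receptors of Cxcl1, Cxcl2 and Cxcl5 were scarce: Cxcr2 had 42 UMIs and Cxcr1 0 in kept cells. Cxcr3, the receptor of Cxcl9 and Cxcl10, had 45 UMIs.

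Between genotypes, no ligand passed the test over all cells. The edgeR quasi-likelihood test with Benjamini-Hochberg adjustment called 0 of 12971 genes (0% of genes, none of the 26 ligands tested, Ccl17 and Xcl1 being below the filter). At an unadjusted p under 0.05 there were 5 ligands, against 12.5% of all genes: Cxcl9, Cxcl14, Cxcl12, Ccl5 and Ccl27a. DESeq2's Wald test, as an alternative, called 2 ligands, Cxcl9 (adjusted p = 0.0190) and Cxcl14 (adjusted p = 0.0238). The share of all genes that DESeq2 called is not given, so these calls have no background to be read against. The median log2 fold change of the 26 ligands was -0.07 (12 higher, 14 lower), beside -0.01 over all genes. Counts were simulated with the libraries' own depths and 1 common spread for all genes. In them the test over all cells found 46.9% of genes changed by 1 on the log2 scale and 100% of those changed by 2. These shares do not cover genes that vary more between libraries than that.

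Cxcl12 over all cells was at 2196, 2488 and 2009 CPM in control 1 to 3 and 1513, 1949 and 1512 in Dsp_het 1 to 3. Every Dsp_het library was below every control library. The log2 fold change was -0.43 ± 0.14 (SE, edgeR adjusted p = 0.296). Endothelial-like cells, which hold nearly all Cxcl12, made up 89.3%, 85.4% and 82.4% of the control and 70.8%, 86.0% and 72.6% of the Dsp_het libraries, and within them the log2 fold change was -0.15 ± 0.12 (edgeR adjusted p = 0.999). In bulk sums such as these, fewer cells of a class and less RNA per cell cannot be told apart, and the values within classes are given for that reason. Cxcr4 likewise did not overlap, at 48.4, 41.5 and 47.2 CPM against 32.6, 30.7 and 30.6, with a log2 fold change of -0.56 ± 0.11 over all cells (edgeR adjusted p = 0.151; -0.23 ± 0.16 within endothelial-like cells). Ackr3 was at 144, 114 and 126 CPM against 211, 176 and 152, a log2 fold change of 0.48 ± 0.16 (edgeR adjusted p = 0.302). Within endothelial-like cells Ackr3 was at 137, 118 and 127 CPM against 170, 167 and 165, again without overlap (log2 fold change 0.38 ± 0.11, edgeR adjusted p = 0.742).

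Cxcl9 over all cells was at 79.5, 50.5 and 40.8 CPM in control 1 to 3 and 21.6, 19.3 and 40.4 in Dsp_het 1 to 3. The groups did not overlap, but their nearest libraries, control 3 and Dsp_het 3, were nearly equal. The log2 fold change was -1.08 ± 0.31 (SE, edgeR adjusted p = 0.248), and -0.85 ± 0.29 within endothelial-like cells (edgeR adjusted p = 0.931). Cxcl14 was at 27.2, 20.6 and 11.9 CPM against 68.4, 33.1 and 33.8, also without overlap. Its log2 fold change was 1.21 ± 0.37 over all cells (edgeR adjusted p = 0.271) and 0.31 ± 0.23 within fibroblast-like cells (edgeR adjusted p = 1.00), the class whose share was above all controls in each Dsp_het library. Without Dsp_het 1 the all-cell value was 0.74. Ccl27a was at 7.74, 8.78 and 9.31 CPM against 19.3, 11.3 and 10.6 (log2 fold change 0.67 ± 0.27, edgeR adjusted p = 0.377), and 0.31 without Dsp_het 1. Within epicardial-like, fibroblast-like and endothelial-like cells the log2 fold change of Ccl27a was -0.07 ± 0.27, 0.18 ± 0.29 and 0.20 ± 0.26. Epicardial-like cells, where it was highest, made up 1.93%, 2.98% and 3.29% of the control and 7.89%, 4.35% and 8.82% of the Dsp_het libraries. The part of this mix in the all-cell value of Ccl27a was not tested. In all, 2 of 27 ligands (Ccl27a and Cxcl14) were higher in every Dsp_het library, against 11.1% of 14698 genes, and 3 (Cxcl9, Ccl24 and Cxcl12) were lower, against 6.25%. For 3 against 3 libraries the smallest p of an exact two-sided permutation test is 0.1, and these 5 ligands had that value.

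**Figure D4:**
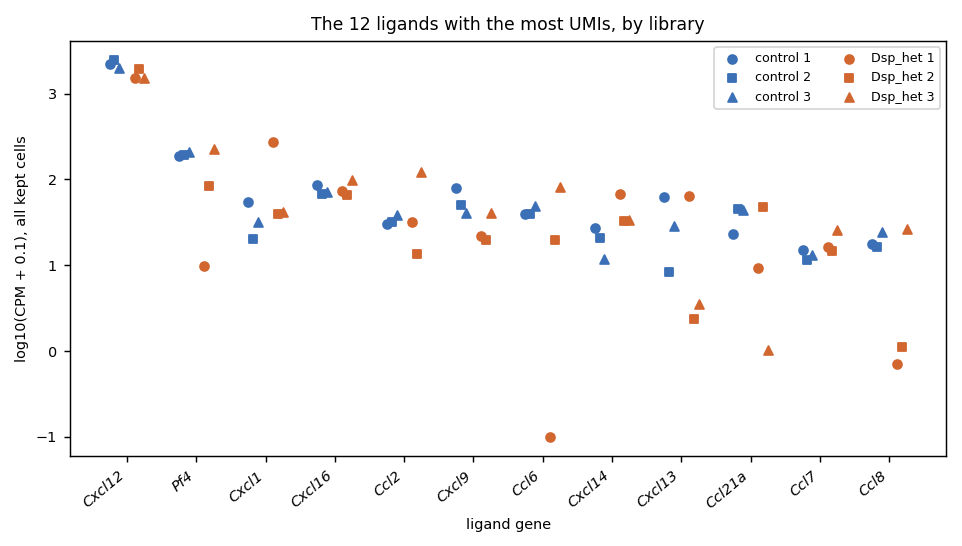
Levels of the 12 ligands with the most UMIs over all kept cells of each library, as log10 of CPM plus 0.1, with control and Dsp_het libraries in separate colours. Of these, Cxcl12, Cxcl9 and Cxcl14 are the ligands whose groups do not overlap.

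The macrophage ligands were low over all cells in the libraries with few macrophage-like cells. Pf4 over all cells was at 186, 192 and 208 CPM in the control and 9.60, 83.4 and 224 in the Dsp_het libraries, where macrophage-like cells numbered 2, 20 and 40. Ccl6 was at 39.7, 39.6 and 48.8 CPM against 0, 19.3 and 81.1, and Ccl24 at 20.3, 16.8 and 21.6 against 0.229, 8.36 and 16.4. In each, Dsp_het 1 was lowest and Dsp_het 3 highest of its group. Cxcl1, at 53.9, 19.9 and 31.5 CPM against 271, 39.5 and 41.5, was in turn high in Dsp_het 1, the library with 20.6% fibroblast-like cells. Other all-cell levels overlapped. Cxcl16 was at 87.0, 66.7 and 71.7 CPM against 72.4, 65.7 and 97.2. Ccl2 was at 29.8, 31.6 and 38.9 against 31.5, 13.4 and 123, and Ccl7 at 15, 11.6 and 13.0 against 16.3, 14.5 and 25.8, both highest in Dsp_het 3. For Ccl7 the overlap was slight, with Dsp_het 2 just below control 1. Its Dsp_het 3 level within classes was lower without the cells with the most UMIs of each ligand. It was then 20.5 instead of 81.6 CPM in fibroblast-like and 56.6 instead of 200 in macrophage-like cells. Cxcl13 was at 62.0, 8.34 and 28.3 CPM against 64.8, 2.29 and 3.45. Ccl21a was at 22.9, 44.9 and 43.5 CPM against 9.22, 47.8 and 0.920, and Ccl8 at 17.5, 16.4 and 24.3 against 0.610, 1.03 and 26.1. Ccl5 was at 10.3, 0.146 and 42.2 CPM against 0.457, 2.86 and 0.345, with a log2 fold change of -3.99 ± 1.42 (SE, edgeR adjusted p = 0.324) that rests on the few T or NK cells described above.

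Within macrophage-like cells, tested on 3 control and 2 Dsp_het libraries, no ligand passed (edgeR, 0 of 15 tested and 0 of 5998 genes), while 6 had an unadjusted p under 0.05, against 5.87% of genes. DESeq2 called 1, Ccl3 (adjusted p = 0.0269), again without a share of all genes to read it against. Ccl3 was at 60.4, 109 and 67.8 CPM in control 1 to 3 and 355 and 196 in Dsp_het 2 and 3. Both Dsp_het libraries were above every control library. The log2 fold change was 1.69 ± 0.30 (SE, edgeR adjusted p = 0.378). Cxcl2, given above, had a log2 fold change of 1.01 ± 0.30 (edgeR adjusted p = 0.682), and Ccl4, at 131, 153 and 102 CPM against 298 and 162, one of 0.71 ± 0.28 (edgeR adjusted p = 0.829). Cxcl12 in this class was at 68.2, 57.0 and 205 CPM against 289 and 291, beside 956 to 5480 CPM of summed endothelial markers, whose part in the value was not tested (log2 fold change 1.24 ± 0.39, edgeR adjusted p = 0.732). In the other direction, Ccl24 had -0.51 ± 0.23 (edgeR adjusted p = 0.849) and Cxcl13, at 138, 140 and 13.3 CPM against 0 and 3.38, had -5.15 ± 1.24 (edgeR adjusted p = 0.562), on 137 UMIs in all. The class tested had 20 and 40 Dsp_het cells. In counts simulated with 1 common spread for all genes, 19.2% of genes changed by 1 on the log2 scale were found there.

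Within endothelial-like cells, 11 ligands were tested and none passed (edgeR, 0 of 11323 genes). Cxcl9 was the 1 ligand with an unadjusted p under 0.05, against 4.51% of genes. Cxcl1 was at 8.65, 8.19 and 7.37 CPM against 30.8, 8.96 and 6.02, high in Dsp_het 1 alone (log2 fold change 0.95 ± 0.46, SE, edgeR adjusted p = 0.999; -0.096 without that library). Ccl21a was at 28.7, 59.9 and 61.5 CPM against 0.147, 64.4 and 0.622, which again counts lymphatic cells (-1.17 ± 0.94, edgeR adjusted p = 0.999).

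Within fibroblast-like cells, 11 ligands were tested and none passed (edgeR, 1 of 8369 genes, 0.0119%). The 1 with an unadjusted p under 0.05, against 3.13% of genes, was Cxcl16, at 50.2, 47.3 and 49.8 CPM in control 1 to 3 and 60.4, 79.1 and 73.4 in Dsp_het 1 to 3. The groups did not overlap (log2 fold change 0.50 ± 0.17, SE, edgeR adjusted p = 1.00). Ccl7 was at 38.2, 64.1 and 11.8 CPM against 45.5, 57.8 and 81.6 (0.79 ± 0.40). Its Dsp_het 3 value was 20.5 CPM without the cells with the most UMIs of each ligand. Ccl2 had 1.95 ± 0.97, a value that turned to -1.005 when the cells with the most UMIs of each ligand were left out. Cxcl1 had 0.68 ± 0.40, and -0.014 without Dsp_het 1.

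Within epicardial-like cells, 7 ligands were tested and none passed (edgeR, 0 of 8246 genes). Ccl2, the 1 with an unadjusted p under 0.05, against 3.26% of genes, was at 12.3, 0 and 3.86 CPM in control 1 to 3 and 63.0, 1.23 and 31.7 in Dsp_het 1 to 3, so the groups overlapped (log2 fold change 2.88 ± 0.90, SE, edgeR adjusted p = 1.00). With the replicate number as a block its adjusted p was 0.0314 (edgeR, log2 fold change 2.71). The share of all genes called in that fit is not given. Cxcl13 had -2.11 ± 1.07, which was 0.19 without the cells with the most UMIs. Cxcl12 was at 9.20, 14.9 and 105 CPM against 38.0, 22.2 and 18.1 (-1.03 ± 0.52, and 1.18 without control 3).

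In pericyte-like cells 3 control libraries were set against 1 Dsp_het library, so these values compare that library with the controls and are no replicated genotype comparison. The lone library is assumed to vary like the controls. Cxcl10 was at 0, 0 and 1.10 CPM in control 1 to 3 and 121 in Dsp_het 3, and Cxcl9 at 23.6, 10.2 and 34.0 against 161. Their log2 fold changes were 6.67 ± 0.73 (SE, edgeR adjusted p = 2.86e-16) and 2.46 ± 0.38 (edgeR adjusted p = 1.56e-07), 2 of 6 ligands tested, against 0.661% of 6202 genes in either direction. Both were higher, as were 0.419% of genes, with 0.242% lower and 6.92% at an unadjusted p under 0.05. A single cell held 48 of the 59 Cxcl10 UMIs of the class, and also 60 Cxcl9 UMIs. It had 36858 UMIs in all, with 778 of endothelial and 329 of pericyte markers. Without the cells with the most UMIs of each ligand, none of the 3 ligands still tested passed in this class. Cxcl9 in Dsp_het 3 was then at 13.0 CPM, between the controls, which kept their values, and Cxcl10 was at 0. Both calls therefore rested on the cells left out. Among the interferon genes, 7 of 23 tested passed in this class, all higher, among them Rsad2 (log2 fold change 1.72 ± 0.30). Of the 23 immediate early genes tested, which respond to tissue dissociation, Fos (-1.32 ± 0.35) and Egr1 (-1.51 ± 0.36) passed, both lower. Without the same cells, 0 of 22 interferon and 0 of 23 immediate early genes passed (edgeR, lowest adjusted p of 0.0709 and 0.12), where 11 of 5425 genes did, and 8 of the 22 interferon genes were higher. Ccl11, at 11.8, 56.2 and 3.29 CPM against 0, had an edgeR adjusted p of 0.786.

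**Figure D5:**
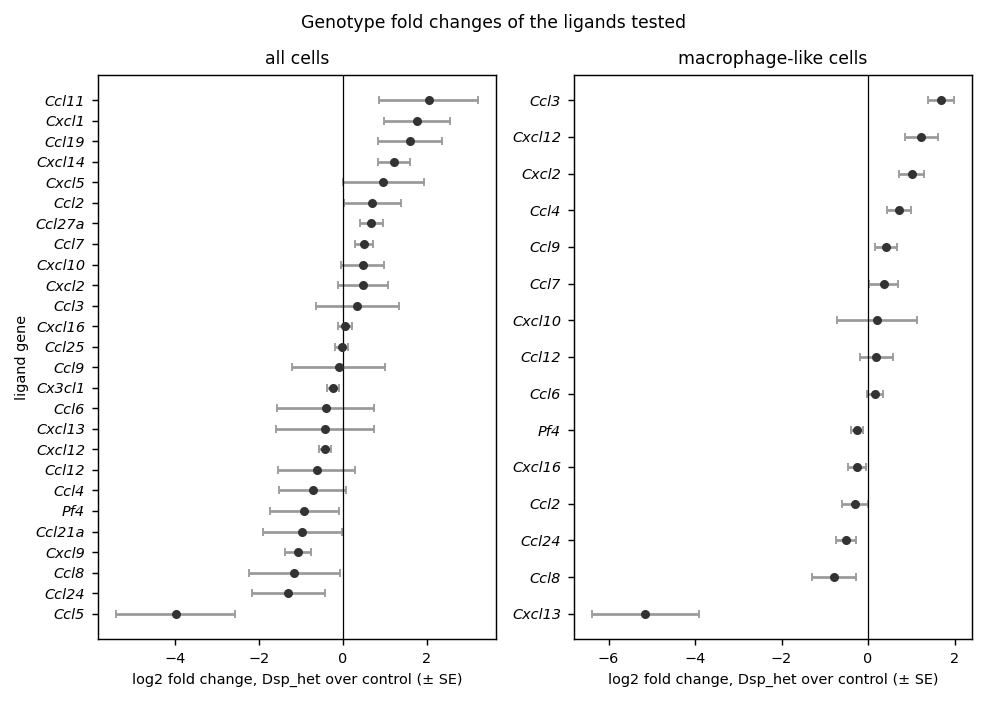
Log2 fold change, Dsp_het against control, of each ligand over all cells and within macrophage-like cells, with bars of 1 SE from edgeR. Over all cells none passes after adjustment. In macrophage-like cells Ccl3, at 1.69, has the smallest p.

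Whether the genotype difference of a ligand itself differed between classes was tested for endothelial-like, fibroblast-like and epicardial-like cells, with the library as a block. None of the 17 ligands tested passed in any of the 3 contrasts, where 2, 1 and 2 had an unadjusted p under 0.05, against 5.44%, 4.53% and 4.8% of genes. Among all genes, 0.00898% passed, lower, in each of the contrasts with endothelial-like cells and 0% in the contrast of fibroblast-like with epicardial-like cells. The smallest p-values were for Pf4, with 2.16 ± 0.74 (SE) for epicardial-like minus endothelial-like (edgeR adjusted p = 0.85) and -2.52 ± 0.78 for fibroblast-like minus epicardial-like cells (edgeR adjusted p = 0.927). Both rest on Pf4 levels far below those of macrophage-like cells. Cxcl16 had 0.50 ± 0.21 for fibroblast-like minus endothelial-like cells (edgeR adjusted p = 1.00).

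The genes around the ligands were read from the same fits. Over all cells, none of 7 signalling receptors passed and 6 were lower, with a median log2 fold change of -0.50, and none of 4 atypical receptors passed and all 4 were higher, with a median of 0.61. Ackr3 and Ackr4 were highest in fibroblast-like cells, whose share was larger in every Dsp_het library than in any control. Within fibroblast-like cells the log2 fold change was 0.35 ± 0.16 for Ackr3 and -0.19 ± 0.35 for Ackr4 (edgeR adjusted p = 1.00 for both). Within endothelial-like cells that of Ackr3 was 0.38 ± 0.11. The part of the cell mix in the all-cell values was not tested. All genes had a median of -0.01 over all cells. Of 13 genes for chemokine presentation, shedding and cleavage, 9 were higher (median 0.26), and of 19 genes of the NF-kappaB pathway and its targets, 9 were higher (median -0.06). Of 23 interferon response genes, 22 were lower (median -0.34), and 21 of 23 were lower within endothelial-like cells (median -0.14), the direction of Cxcl9 in the same libraries. Of 29 immediate early genes, 20 were higher over all cells (median 0.32), 8 of 27 within endothelial-like (median -0.10) and 23 of 27 within fibroblast-like cells (median 0.35). None of these genes passed the test outside the pericyte-like class, so the directions are descriptions, and the part of dissociation in the ligand values was not tested.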

How the data were processed

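UMI counts per gene and cell for all libraries were deposited by the authors as 1 sparse matrix of raw counts, with separate lists of genes and barcodes whose suffix names the library (per the file headers and the labels). Barcodes and gene symbols were read as other, non-numeric columns of the deposited data. The barcode list also gives total UMIs and genes per barcode as deposited counts. The submitters' processing notes name GRCm38 and Seurat. No aligner or counter is named there, and the sources used here do not give them. The members, lists and markers were chosen with earlier results of these data known.

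Barcodes with at least 500 UMIs, 200 genes and at most 20% mitochondrial UMIs were used, each in the 1 library that held most of its UMIs. Scrublet called 53 of 12661 cells (0.419%), too few to count as a working doublet call. These were left out, and no other doublet treatment was applied except as an alternative. Cells were clustered in scanpy 1.11.5 (2000 variable genes without the ligands, 30 components, 15 neighbours, Leiden resolution 1). Clusters were named from marker lists where at least 3 markers were detected and the leading genes did not contradict the name.

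UMIs were summed per library and class (at least 20 cells) and tested with edgeR 4.0.16 in R 4.3.3 (TMM, filterByExpr with a minimum count of 10, quasi-likelihood, Benjamini-Hochberg over all genes of a fit, threshold 0.05). SEs were computed from the log2 fold change and the F statistic. DESeq2 1.42.0 was an alternative. Others were all barcodes, a stricter cell filter, no low-count filter, DESeq2 size factors, resolution 2, clustering with the ligands, the top 3% of doublet scores left out, a term for high Xist, the replicate number as a block and each library left out in turn. Gene positions are from GENCODE vM21 on GRCm38. The fits were tested on simulated counts with known changes. Total UMIs per library limit the precision: with 7573157 UMIs or more in a library, a ligand at 1 CPM rests on few molecules. Intervals cover counting error only.

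Values per library are given for ligands past the threshold in a fit, the 12 with the most UMIs and the 3 with the smallest p in each fit. The other ligands are given by mean, range or count. Receptors are given for the 8 with the most UMIs, apart from an entry that is not reported here, and UMI totals for scarce receptors of the ligands described.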

Additional observations from a re-analysis of the deposited data

How the results depend on the processing

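The number of ligands separated by class was 15 or 16 in every alternative run, but the ligands were not always the same. Without the cells with the most UMIs of each ligand, Ccl7 was no longer separated. Its macrophage-like level in Dsp_het 3 was then 56.6 CPM, below the 64.7 of fibroblast-like cells in control 2. Ccl2 became separated, with a lowest macrophage-like value of 196 CPM against 102 in fibroblast-like cells of control 2. Counts of ligands past the threshold changed as follows. The share of all genes called in each alternative run, here and below, is not given. The counts therefore show how the calls depend on the processing and do not set the ligands apart from other genes. Over all cells the count was 0 and became 2 with DESeq2, with 0 when any library was left out. In endothelial-like cells 0 became 2 without the low-count filter, 1 (Ccl21a) without the cell with the most UMIs of each ligand, an alternative chosen after seeing the data, and 0 to 1 when a library was left out (1 without Dsp_het 2, Ccl21a). In fibroblast-like cells 0 became 5 without the filter, and in epicardial-like cells 2 without the filter and 0 to 1 when a library was left out (1 without Dsp_het 2, Ccl2). In macrophage-like cells 0 became 1 with DESeq2, 6 without the filter, 2 with the Xist term (Ccl3 and Cxcl13) and 0 to 2 when a library was left out (Cxcl13 and Cxcl12 without control 3, Ccl8 and Ccl3 without Dsp_het 3). In pericyte-like cells 2 became 1 with all barcodes, 1 with DESeq2 and 0 without the cells with the most UMIs. The class interaction went from 0 to 1 (Cxcl13) without the top doublet scores and to 4 without the filter. The share of cells with a ligand UMI went from 93.2% to 74.1% after thinning. The cause of these changes was not tested, apart from the fewer cells or libraries each leaves.

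Directions turned in few cases. Leaving out 1 library gave log2 fold changes of -0.43 to 2.59 for Ccl11 over all cells, -0.096 to 1.31 for Cxcl1 in endothelial-like and -0.014 to 1.23 in fibroblast-like cells, -0.66 to 2.48 for Ccl2 in fibroblast-like cells, -1.49 to 1.18 for Cxcl12 in epicardial-like cells and -1.04 to 1.18 for its fibroblast-like minus epicardial-like interaction. Without the cells with the most UMIs, Ccl2 was -1.005 in fibroblast-like cells and -0.64 in its fibroblast-like minus endothelial-like interaction, and Cxcl13 was 0.19 in epicardial-like cells. With all barcodes Ccl4 was -0.21 in macrophage-like cells.

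Same-numbered libraries did not deviate together (correlations of 0.009, -0.07 and -0.056), and pairs of unlike number had -0.061 to 0.138. The labels do not say whether the numbers pair libraries. So few correlations, taken over all genes alike, cannot decide it. With the replicate block the count was 1 in epicardial-like cells (Ccl2, log2 fold change 2.71, edgeR adjusted p = 0.0314) and 0 in endothelial-like, fibroblast-like, macrophage-like and all cells. Pericyte-like cells could not be fitted with the block or without Dsp_het 3. Small classes limit the rest: 2 macrophage-like cells in Dsp_het 1 allow no value.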
